A study of Mus musculus with 2 samples.

Results

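The 5 genes Prg2, Prg3, Epx, Ear6 and Siglecf, whose products mark eosinophils, were followed in 2 single-cell libraries of mouse leukaemia cells. Prg2 and Prg3 encode major basic proteins of the granule, Epx the eosinophil peroxidase, Ear6 an eosinophil-associated ribonuclease and Siglecf a surface receptor. The genes were taken by symbol, and all 5 of 5 were found among the 27998 genes of each count matrix. The cells carried the MLL-AF9 fusion, an oncoprotein that drives acute myeloid leukaemia, together with the Cas9 nuclease. They came from a primary mouse leukaemia, per the labels, and were cultured in RPMI medium with 10% serum, penicillin and streptomycin, and 10 ng/ml mouse interleukin-3 (IL-3). The control library held cells with a guide RNA against Renilla luciferase, a sequence that mouse cells lack, and the other library held cells with a guide against the Jumonji domain of Jmjd1c, a gene of the JmjC family. No source used here gives the strain, the age, or how many clones or cultures lie behind each library.

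Eosinophils are granulocytes that store cationic proteins and a heme peroxidase in specific granules. Major basic protein, eosinophil peroxidase and the eosinophil ribonucleases are made while the granules form in the bone marrow, whereas Siglec-F is a sialic acid-binding receptor on the cell surface that is also found on alveolar macrophages. IL-3 belongs, with IL-5 and GM-CSF, to the cytokines that support growth and survival of the eosinophil lineage through a shared receptor chain.

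The Renilla library held 651 barcodes, of which 608 were kept, and the Jumonji library held 652, of which 575 were kept. A cell was kept when 500 or more genes were detected in it and mitochondrial genes gave no more than 10% of its unique molecular identifiers (UMIs, tags that mark single RNA molecules). The kept Renilla cells held 14418743 UMIs (median 23528 per cell) and the Jumonji cells 12809661 (median 22123), and no barcode occurred in both. Jmjd1c itself had 2025 Renilla and 1435 Jumonji UMIs, a ratio of CPM (UMIs scaled to a common library total) of 0.798 (95% counting interval 0.745 to 0.854). Counts from the 3′ end do not read the guide's target, so this does not check the label. With 1 library per guide there is no replicate, no test was made between the libraries, and every interval below covers counting error only.

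The genes lie at 4 loci of the mm10 genome (coordinates from GENCODE M21). Prg2 (ENSMUSG00000027073; chromosome 2, 84980461 to 84983632, plus strand) and Prg3 (ENSMUSG00000027072; chromosome 2, 84988215 to 84993886, plus strand) are neighbours 4.58 kb apart. Epx (ENSMUSG00000052234) is on the minus strand of chromosome 11, from 87864000 to 87875536. Siglecf (ENSMUSG00000039013) is on the plus strand of chromosome 7, from 43351341 to 43359531. Ear6 (ENSMUSG00000062148) is on the plus strand of chromosome 14, from 51853699 to 51854643. For the 3′ ends that the assay counts, the last 500 bases of the annotated transcripts were compared in stretches of 50 bases with all other GENCODE transcripts. No stretch of Prg2, Prg3, Epx or Siglecf was shared with another gene. For Ear6, 9 of 503 stretches (1.79%) were shared with Ear1, Ear2 or Ear10. Reads were not compared, so the share of Ear6 reads that could not be told from those genes is not known.

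A promoter was found for 4 of the 5 genes in the RefSeq table used (build GRCm38.p6). The 250 bases upstream of the start were searched on both strands. The motifs were GATAA, known from Gata1 and its relatives, the C/EBP motif TTGCGCAA, its looser form TTGCNNAA, which contains it, and the PU.1 motif GAGGAAG. Only Prg3 and Siglecf held a match, and their windows are shown for that reason, 5′ to 3′ on the gene's strand, with matches in capitals.
Prg3, chr2:84987965-84988214, plus strand: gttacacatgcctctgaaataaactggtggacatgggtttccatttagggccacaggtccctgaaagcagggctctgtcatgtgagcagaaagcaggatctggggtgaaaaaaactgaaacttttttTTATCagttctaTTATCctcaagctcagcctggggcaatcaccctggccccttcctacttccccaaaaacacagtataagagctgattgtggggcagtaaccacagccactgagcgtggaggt
Siglecf, chr7:43351091-43351340, plus strand: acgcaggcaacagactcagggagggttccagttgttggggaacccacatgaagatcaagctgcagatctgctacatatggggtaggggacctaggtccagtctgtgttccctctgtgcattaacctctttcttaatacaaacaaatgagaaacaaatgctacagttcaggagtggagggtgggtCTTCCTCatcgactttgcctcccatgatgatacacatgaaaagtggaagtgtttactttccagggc
The Prg3 window held GATAA at 2 places, both on the minus strand (TTATC as printed), 123 and 111 bases before the start. GATAA occurred in 22.5% of 32536 RefSeq promoter windows of this length, and at 2 or more places in 4.18%. The Siglecf window held GAGGAAG on the minus strand, 66 bases before the start, a motif found in 10.7% of windows. Neither C/EBP motif (0.166% and 9.57% of windows) was found in the 4 windows, and the Epx and Ear6 windows held none of the 4 motifs. The Ear6 window ran to position 51853767, past the GENCODE start of the gene at 51853699, so part of it lay within that gene. These matches are descriptions of letters, and binding was not measured.

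All 5 genes had a higher CPM in the Jumonji library. The ratios ranged from 1.66-fold for Prg3 to 22.5-fold for Ear6, which was set against a floor of 3 Renilla counts. The 2-fold line was passed by 4 of the 5, against 545 of 9922 genes with at least 50 UMIs (5.49%). All 5 passed that minimum, but Prg2, Siglecf and Ear6, with 45, 28 and 0 Renilla UMIs, reached it only with the counts of the library where they were higher. The members' median log2 ratio was 1.81, against -0.06 over all genes tested. The 4 did not rest on equally many cells: Siglecf and Ear6 were higher through single UMIs in many cells, and Prg2 through a few cells with very many. Without the highest Jumonji cell 3 genes passed the line (Epx was just short of it). With cells thinned to 10000 UMIs 2 did: Prg2 was then below the line (log2 ratio 0.89) and Ear6 had fewer than 50 UMIs.

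Prg2 encodes the precursor of major basic protein 1, the protein of the granule's crystalline core. It had 45 Renilla UMIs (3.12 CPM, 2.28 to 4.18) and 233 Jumonji UMIs (18.2 CPM, 15.9 to 20.7), a log2 ratio of 2.54 (2.08 to 3.04). The number of cells with a UMI differed less: 22 Renilla cells (3.62%) and 35 Jumonji cells (6.09%, 4.28 to 8.36). Most of these held 1 molecule, 14 and 20 cells. The highest Renilla cells held 7, 7 and 4 Prg2 UMIs, and the highest Jumonji cells held 119, 34 and 11. A single Jumonji cell thus held 51.1% of all Prg2 UMIs of its library, and that cell and the next held 65.7%. Without the highest cell the log2 ratio was 1.51 (1.00 to 2.04), and without both it was 1.00 (0.46 to 1.56). Both cells were shallow, with 8277 and 8845 UMIs in all. They fell out when every cell was thinned at random to 10000 UMIs, and the log2 ratio was then 0.89 (0.13 to 1.69), with a Prg2 UMI in 2.07% of 579 Renilla and 4.23% of 520 Jumonji cells. When cells were thinned to 5000 UMIs instead, which kept these cells, it was 3.16 (2.29 to 4.16).

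Prg3, which encodes the second major basic protein homologue, was the most widely detected of the 5. It had 364 Renilla UMIs (25.2 CPM, 22.7 to 28) and 537 Jumonji UMIs (41.9 CPM, 38.5 to 45.6). The log2 ratio was 0.73 (0.54 to 0.93), or 1.66-fold. The share of cells with a UMI differed little, at 28.9% (176 cells; 25.4 to 32.7) and 31.0% (178 cells; 27.2 to 34.9), and the intervals overlapped. The libraries were further apart in the cells that held several: 11 Renilla and 25 Jumonji cells had 5 or more Prg3 UMIs. The highest cells held 25 and 35 UMIs, so Prg3-rich cells were present in the control library too. Thinned to 10000 UMIs per cell, the shares were 16.1% and 19.0%.

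Epx encodes the peroxidase that makes hypohalous acids in eosinophil granules. It had 72 Renilla UMIs (4.99 CPM, 3.91 to 6.29) and 131 Jumonji UMIs (10.2 CPM, 8.55 to 12.1), a log2 ratio of 1.03 (0.61 to 1.47). A UMI was found in 56 Renilla cells (9.21%) and 76 Jumonji cells (13.2%), and the highest cells held 5 and 13. Epx passed the 2-fold line narrowly: with all deposited barcodes its log2 ratio was 0.97, and without the highest Jumonji cell it was 0.99. Thinned to 10000 UMIs, it was 1.55 (0.89 to 2.25), with shares of 3.63% and 8.85%.

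Ear6 belongs to the eosinophil-associated ribonucleases, a rodent gene family related to eosinophil cationic protein. No UMI was counted in any of the 608 Renilla cells, which allows up to 0.605% of cells with a UMI. In the Jumonji library 60 UMIs were counted (4.68 CPM, 3.57 to 6.03) in 46 cells (8%, 5.92 to 10.5). With a floor of 3 counts set in place of the 0 in the Renilla library, the Ear6 ratio was 22.5-fold. The UMIs were spread thinly: 36 cells held 1, and the highest cells held 5, 3 and 2. The counting interval of that ratio ran from 7.34 to 112 and treats the floor as if it had been counted. The log2 of that ratio was 4.49, and it was 4.22 without the 10 cells of each library richest in the 5 genes. It was 3.09 with cells thinned to 10000 UMIs and 2.75 at 5000 UMIs, where fewer Ear6 molecules stand against the same floor.

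Siglecf was also detected as scattered single molecules. It had 28 UMIs in 28 Renilla cells (1.94 CPM, 1.29 to 2.81; 4.61% of cells) and 87 UMIs in 83 Jumonji cells (6.79 CPM, 5.44 to 8.38; 14.4% of cells, 11.7 to 17.6). No Renilla cell held more than 1 Siglecf UMI and no Jumonji cell more than 2. The log2 ratio was 1.81 (1.18 to 2.48), the share at 10000 UMIs per cell was 2.25% against 7.31%, and leaving out the 10 richest cells of each library gave 1.80.

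**Figure D1:**
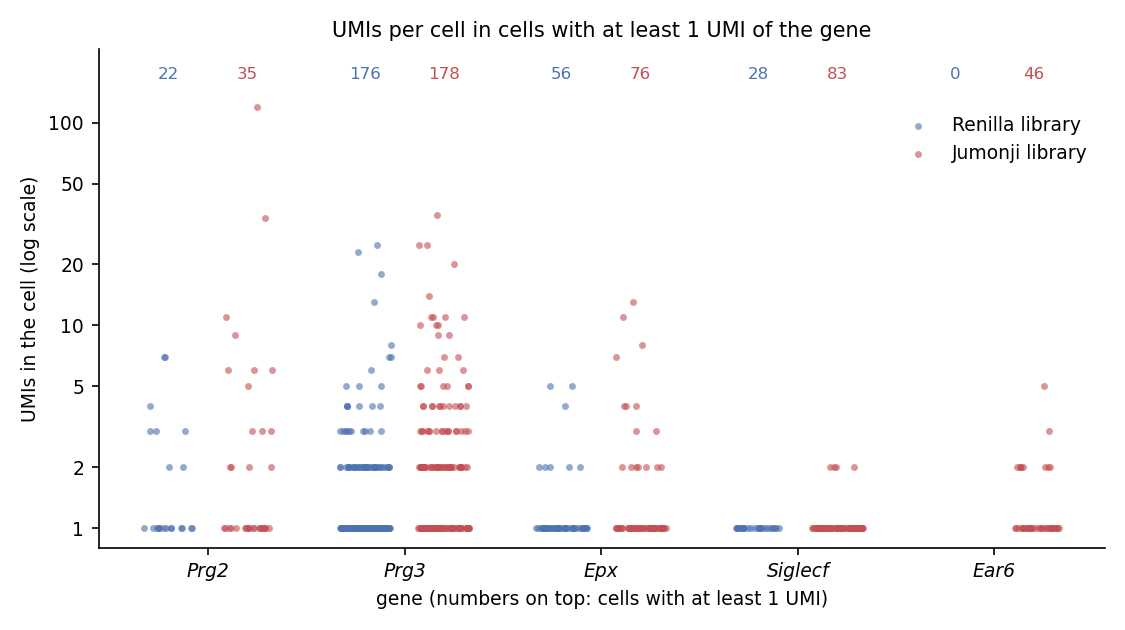
UMIs per cell (log axis) of each gene in the cells with at least 1 UMI, for the Renilla (blue) and Jumonji (red) libraries, with 1 point per cell, spread sideways for visibility. The Jumonji cell with 119 Prg2 UMIs stands far above the rest, Prg3 reaches 25 and 35 UMIs in the respective libraries, and Siglecf never exceeds 2.

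**Figure D2:**
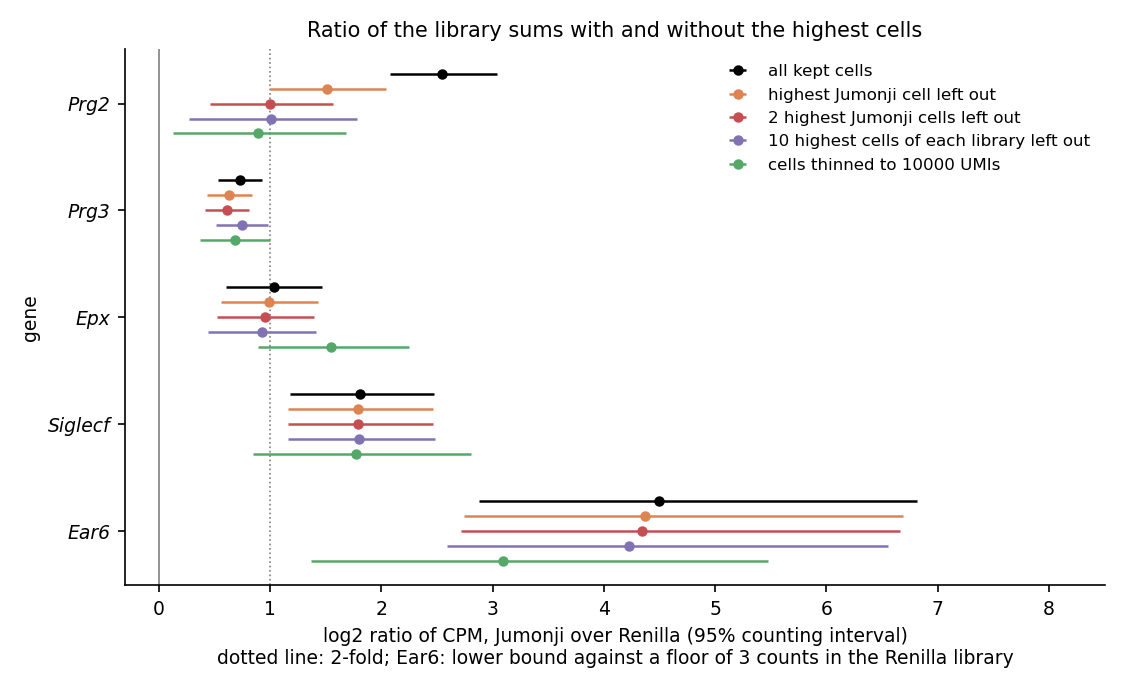
Log2 ratio of CPM, Jumonji over Renilla, with 95% counting intervals, for all kept cells, without the highest Jumonji cells, without the 10 highest cells of each library, and with cells thinned to 10000 UMIs. Prg2 moves from 2.54 to 1.00 when the 2 highest Jumonji cells are left out, while Siglecf stays near 1.8. The Ear6 values are set against a floor of 3 Renilla counts.

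A few molecules of an abundant transcript can reach a droplet as free RNA. No cell class in these libraries is known to lack the 5 genes, so no background share could be set from one. In the 43 Renilla and 77 Jumonji barcodes excluded for mitochondrial UMIs, Prg2 and Ear6 were not counted, and Prg3 was counted in 2 Renilla and 2 Jumonji barcodes. Siglecf was counted in 3 of these Jumonji barcodes (7.11 CPM, 1.47 to 20.8, against 6.79 in kept cells) and in 1 Renilla barcode, and Epx in 2 Renilla barcodes (7.92 CPM, 0.959 to 28.6, against 4.99) and no Jumonji barcode. The part of free RNA in the shares of cells was not tested.

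Several of the 5 genes were found in the same cell more often in the Jumonji library. A UMI of 2 or more of them was found in 41 of 608 Renilla cells (6.74%, 4.88 to 9.04) and in 101 of 575 Jumonji cells (17.6%, 14.5 to 20.9). At 10000 UMIs per cell these shares were 1.73% (0.831 to 3.15) and 8.27% (6.05 to 11). At least 3 were found in 9 and 28 cells, 4 or more in 0 and 8, and all 5 in 1 Jumonji cell. For 4 or more, 0 of 608 Renilla cells allows a share of up to 0.605%. Each of the 5 was also detected in a larger share of Jumonji cells. Ear6 was in 0 Renilla cells, so all 5 could not be found together there. How far the counts of cells with several exceeded what those separate shares give was not tested.

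The granule genes Prg2, Prg3 and Epx shared cells, whereas for Siglecf with these genes no direction held over the depths compared. Each thinned depth was 1 random draw, so an effect of depth cannot be told from the draw. In Jumonji cells thinned to 10000 UMIs, Prg3 was detected in 16 of 22 cells with Prg2 (72.7%, 49.8 to 89.3) and in 83 of 498 cells without it (16.7%, 13.5 to 20.2). Prg3 was detected in 43.5% of the 46 cells with Epx (28.9 to 58.9) and in 16.7% of those without. Of the 19 cells with Ear6, 8 had Prg3 (42.1%, 20.3 to 66.5), against 18.2% of the other cells, and these intervals overlapped. Siglecf was found in 0 of the 22 Prg2 cells (which allows up to 15.4%) and in 7.63% of the others. Prg3 was found in 7.89% of Siglecf cells against 19.9% of the others. Of the 10 pairs of genes, 7 had the second gene more often in cells with the first than in cells without it, 4 of them with intervals that did not overlap. The 3 exceptions were the pairs of Siglecf with Prg2, Prg3 and Epx. In unthinned cells, where deep cells hold more of everything, the Siglecf pairs lay close to the other cells: Prg2 was found in 6.02% of Siglecf cells and 6.10% of cells without it, and Prg3 in 36.1% and 30.1%. At 5000 UMIs per cell, Prg3 was found in 7 of 30 Siglecf cells (23.3%, 9.93 to 42.3) and 12.1% of the others (9.43 to 15.1). These intervals overlapped.

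**Figure D3:**
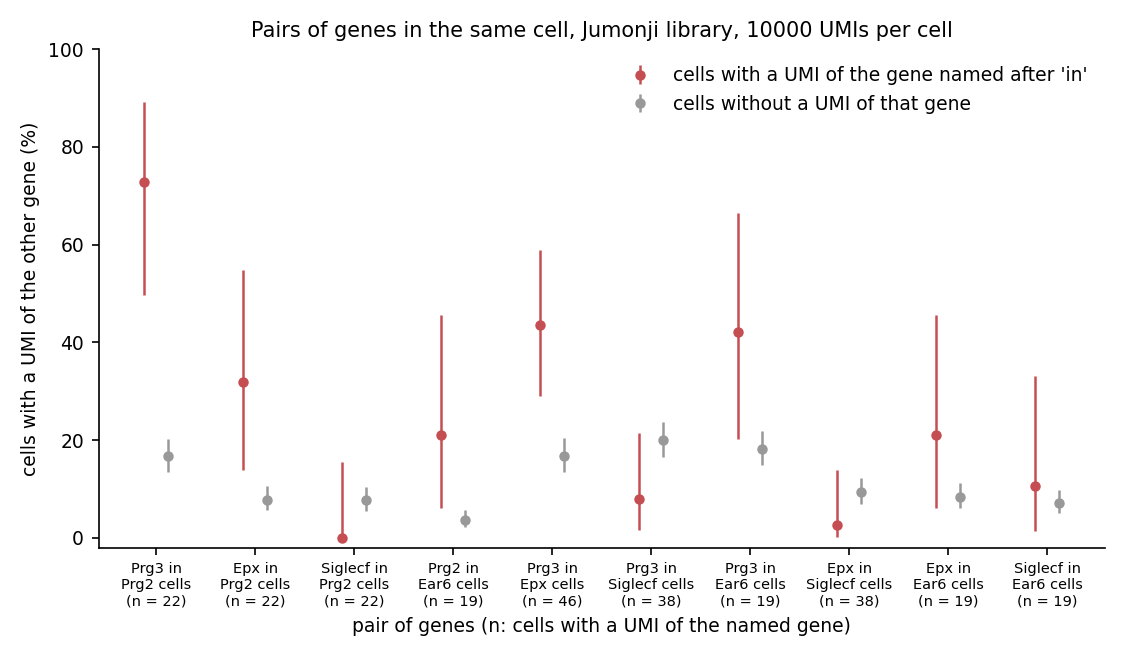
Share of Jumonji cells with a UMI of one gene among cells with (red) and without (grey) a UMI of another, every cell thinned to 10000 UMIs, with exact 95% intervals. Prg3 in Prg2 cells is highest, at 72.7% against 16.7%, and at this depth the red point lies lower for the pairs of Siglecf with Prg2, Prg3 and Epx.

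In the Renilla library fewer cells held these genes, and the pairs were less certain. Unthinned, 15 of 22 Renilla cells with Prg2 had Prg3 (68.2%, 45.1 to 86.1), against 27.5% of the others (23.9 to 31.3). At 10000 UMIs per cell it was 4 of 12 (33.3%, 9.92 to 65.1) against 15.7% (12.8 to 19.0), and at 5000 UMIs 2 of 9, with intervals that overlapped. None of the 6 Renilla pairs had intervals apart at either depth. Epx in Renilla cells with Prg3 had no fixed direction: the shares were 13.6% with Prg3 and 7.41% without it in unthinned cells, 2.15% and 3.91% at 10000 UMIs, and 3.85% and 1.81% at 5000 UMIs. Epx in Renilla cells with Prg2 was at 22.7% against 8.70% unthinned and at 16.7% (2 of 12 cells) against 3.35% at 10000 UMIs. At 5000 UMIs it was in 0 of 9 such cells (0 to 33.6) against 2.01%, so this pair had no fixed direction either. In the Jumonji library at 10000 UMIs, Epx was found in 20.2% of cells with Prg3 (12.8 to 29.5) and 6.18% of cells without (4.07 to 8.92). Whether the pairs differed between the libraries was not tested. Over the 575 Jumonji cells the correlation of log-scaled UMIs was 0.57 for Prg2 with Prg3 (0.50 without the highest cell), 0.48 for Prg2 with Epx and 0.46 for Prg3 with Epx. For Prg2 with Ear6 it was 0.45, and 0.26 without that cell. Siglecf had correlations of 0.02 to 0.12 with the other 4. The points share 1 library and most are at 0 for the rarer genes, so these values only describe it.

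The cell with most of these UMIs, in the Jumonji library, held all 5 genes: 119 Prg2, 35 Prg3, 4 Epx, 1 Siglecf and 5 Ear6 UMIs among 8277. It held no UMI of the 5 primary granule genes of neutrophil precursors (Mpo, Elane, Prtn3, Ctsg, Ms4a3) and none of 14 secondary and late neutrophil genes. The next cell held 34 Prg2, 7 Prg3, 3 Epx and 1 Ear6 UMIs among 8845, with 10 S100a8 UMIs and 1 UMI of the primary granule genes. The third held 6 Prg2, 20 Prg3, 11 Epx and 2 Ear6 UMIs, and 19 of the primary granule genes. The richest Renilla cell held 7 Prg2 and 25 Prg3 UMIs among 16784, none of Epx, Siglecf or Ear6, and 16 primary granule UMIs. The 10 richest Renilla cells together held 147 UMIs of the 5 genes, 20 of them Prg2, and the 10 richest Jumonji cells held 393, of which 188 were Prg2.

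Whether these cells also held neutrophil genes depended on which of the 5 was counted. The libraries differed widely in those genes to begin with. S100a8 and S100a9, calcium-binding proteins abundant in maturing neutrophils, were 7.74-fold (7.23 to 8.31) and 8.08-fold (7.41 to 8.81) higher in the Jumonji library. Lcn2 (8.27-fold), Mmp8 (48.4-fold), Mmp9 (3.89-fold) and Cd177 (11.8-fold) of the secondary and late list were higher as well. Camp, a secondary granule gene, was lower in sum (0.295-fold) but not in cells, with 248 UMIs in 27 Renilla cells and 65 in 36 Jumonji cells. In all, 6 of 9 measured genes of that list were at least 2-fold higher and 1 was lower. All 5 primary granule genes were lower, from 0.113-fold for Mpo to 0.452-fold for Prtn3. The comparisons below were therefore made among cells of 1 library.

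Jumonji cells with an Ear6 UMI were rich in late neutrophil genes. At 10000 UMIs per cell, S100a8 was detected in 73.7% of the 19 Ear6 cells and 29.5% of the 501 others, and the late list summed to 2679 CPM (2451 to 2922) against 1037 (1009 to 1065). In unthinned cells, 20 of 46 Ear6 cells (43.5%, 28.9 to 58.9) held 10 or more S100a8 and S100a9 UMIs, against 71 of 529 others (13.4%, 10.6 to 16.6), although the Ear6 cells were shallower (median 17548 against 22297 UMIs). Of the Jumonji cells with any Prg2 UMI, 13 of 35 (37.1%, 21.5 to 55.1) held 10 or more S100 UMIs, against 14.4% of the others (11.6 to 17.7).

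In Jumonji cells rich in Prg3 or Prg2, the summed level of both kinds of neutrophil gene was lower than in the other Jumonji cells, though S100 UMIs were not rarer cell by cell. In the 25 Jumonji cells with 5 or more Prg3 UMIs, the late list summed to 219 CPM (182 to 262), against 975 (958 to 993) in the other 550, at almost the same median depth (22222 and 22117 UMIs). S100a8 was at 145 CPM against 514, and Mpo, the neutrophil peroxidase, at 9.06 CPM (2.94 to 21.1) against 71.1. The primary granule list summed to 1067 CPM (983 to 1157) against 1842 (1818 to 1866), and the elastase gene Elane was at 457 against 743. In the 8 Jumonji cells with 5 or more Prg2 UMIs, the primary list was at 825 CPM (683 to 988) against 1819, and the late list at 643 against 946. That late sum rested mostly on 1 cell: the cell with 11 Prg2 UMIs held 72 late-list UMIs. The cell with 34 Prg2 UMIs held 13, and the cell with 119 held 0. An S100a8 or S100a9 UMI was nevertheless missing in 32.0% of the 25 Prg3-rich cells, against 52.0% of all kept Jumonji cells, and 2 of the 8 Prg2-rich cells held 10 or more such UMIs (25%, 3.19 to 65.1). Single Jumonji cells held up to 728 S100 UMIs, while none of the 25 held more than 36. In the Renilla library, the summed primary list did not follow this. The 11 cells with 5 or more Prg3 UMIs had it at 5167 CPM, against 5222 in the others. Mpo was at 353 against 612 and Elane at 2551 (2361 to 2753) against 1755. Single cells among the 11 differed widely, however. Those with 25, 23 and 18 Prg3 UMIs held 16, 46 and 6 primary granule UMIs among 16784, 26215 and 17342. Those with 13, 7 and 6 Prg3 UMIs and the most UMIs of the 5 genes held 194, 254 and 380 among 35177, 25128 and 39224. The late list of the 11 cells was at 19.2 CPM against 159. None of those 11 Renilla cells held 10 or more S100 UMIs, while 4 of the 25 Jumonji cells did (16.0%, 4.54 to 36.1), close to the 15.8% of all kept Jumonji cells.

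Cells with Siglecf showed no such excess. S100a8 was detected in 38.6% of the 83 Jumonji cells with a Siglecf UMI and in 41.1% of the others. The late list was lower in Siglecf cells, at 545 CPM (513 to 579) against 1013, and Mpo was at 37.8 against 73.8. Jumonji cells with an Epx UMI lay near the rest in the primary list (1833 against 1804 CPM), and 22.4% of them held 10 or more S100 UMIs, against 14.8% (11.8 to 18.3).

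Other genes varied with the number of the 5 genes detected. Cebpe, a transcription factor of terminal granulocyte differentiation, was at 384 CPM (369 to 400) in Jumonji cells with none of the 5, 596 in cells with 1 and 785 (750 to 821) in cells with 2 or more. In the Renilla library the same classes were at 333, 455 and 582 CPM. Ctss, a lysosomal protease of monocytes and macrophages, was lower along the same order in the Jumonji library, at 106, 37.0 and 10.5 CPM, and was detected in 50.5%, 28.5% and 13.9% of cells. The classes differed in depth (medians 19819, 23495 and 25210 UMIs). At 10000 UMIs per cell, Cebpe was at 456, 637 and 849 CPM and Ctss at 103, 34.4 and 6.98 CPM, in the same order.

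**Figure D4:**
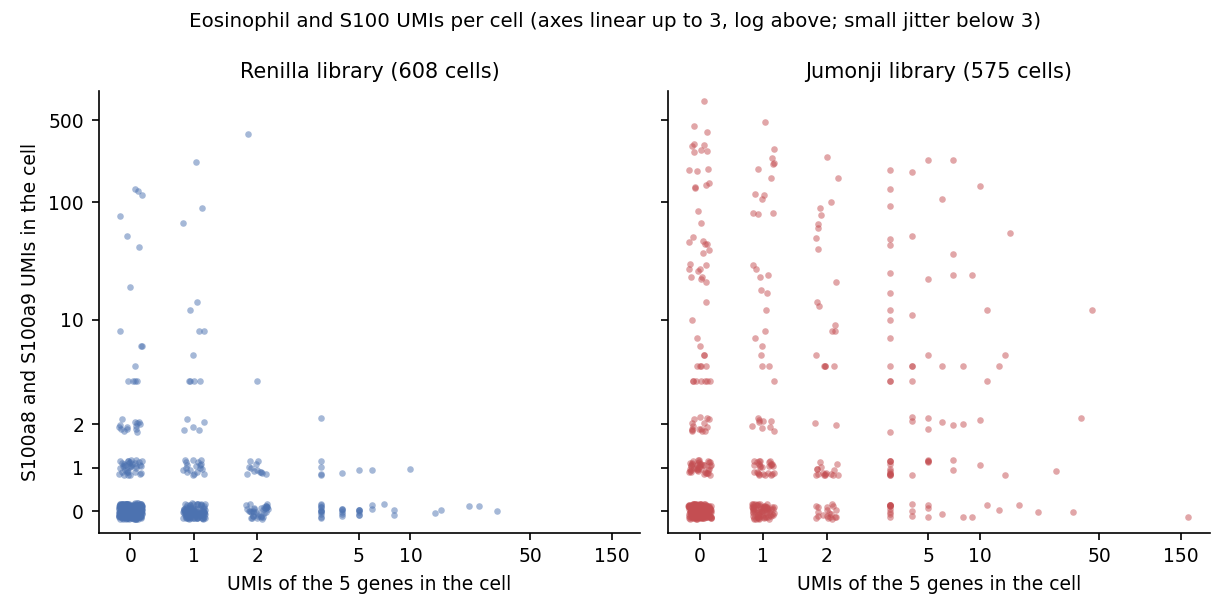
UMIs of the 5 genes (horizontal) against S100a8 plus S100a9 UMIs (vertical) in each kept cell, per library, with 1 point per cell. In the Jumonji library the 91 cells with 10 or more S100 UMIs include 4 of the 18 cells with 10 or more UMIs of the 5 genes, and the cell with 164 such UMIs lies at 0.

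The 5 genes were also followed over 6 clusters built without them and without the other eosinophil genes. Cluster 4 was led by Camp, Chil3, Ngp, S100a9 and S100a8 and is called neutrophil-like. It held 45 Renilla and 148 Jumonji cells. Cluster 1 was led by Cd74, Mmp8 and other genes that fit no single list (51 and 211 cells). Clusters 2, 5 and 6 were led mainly by cell cycle genes and cluster 3 had Mpo among its leading genes. No cluster had an eosinophil gene among its 10 leading genes.

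Ear6 was found in 15.5% of Jumonji cells of the neutrophil-like cluster (10.1 to 22.4) and in 8.53% of cluster 1 (5.13 to 13.1). It was in 3.64% of cluster 6 (1.00 to 9.05) and in 0 of 73 cells of cluster 3 (which allows up to 4.93%). The Ear6 CPM was nearly the same in cluster 4, at 7.76 (5.12 to 11.3), and in the shallower cluster 1, at 7.59 (4.96 to 11.1). Prg2 had 147 of its 233 Jumonji UMIs in cluster 1, 69 in cluster 4 and 11 in cluster 6, and it was at 0 in cluster 3. Cluster 1 held the cell with 119 Prg2 UMIs, and without it had 28, fewer than cluster 4. By cells, Prg2 was found in 10.1% of cluster 4 (5.78 to 16.2) and 7.11% of cluster 1 (4.03 to 11.5). Prg3 was present in every cluster, from 21.9% of Jumonji cells in cluster 3 to 44.4% in cluster 2 among clusters with more than 6 Jumonji cells. Siglecf was found in 11.1% to 16.4% of cells of those clusters, but per UMI it ranged from 4.13 CPM in cluster 2 (0.853 to 12.1) to 9.34 CPM in the shallow cluster 1 (6.39 to 13.2), with intervals that overlapped. In Renilla clusters of at least 45 cells its share lay between 3.35% and 6.67%. Cells with 2 or more of the 5 genes made up 27.0% of Jumonji cells of cluster 4 (20.1 to 34.9), 14.7% of cluster 1 (10.2 to 20.2) and 11% of cluster 3 (4.85 to 20.5). The median depth of Jumonji cells was 15052 UMIs in cluster 1, 23240 in cluster 4, 25448 in cluster 3 and 29278 in cluster 6, so cluster 1 had the fewest molecules per cell to detect a gene with.

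**Figure D5:**
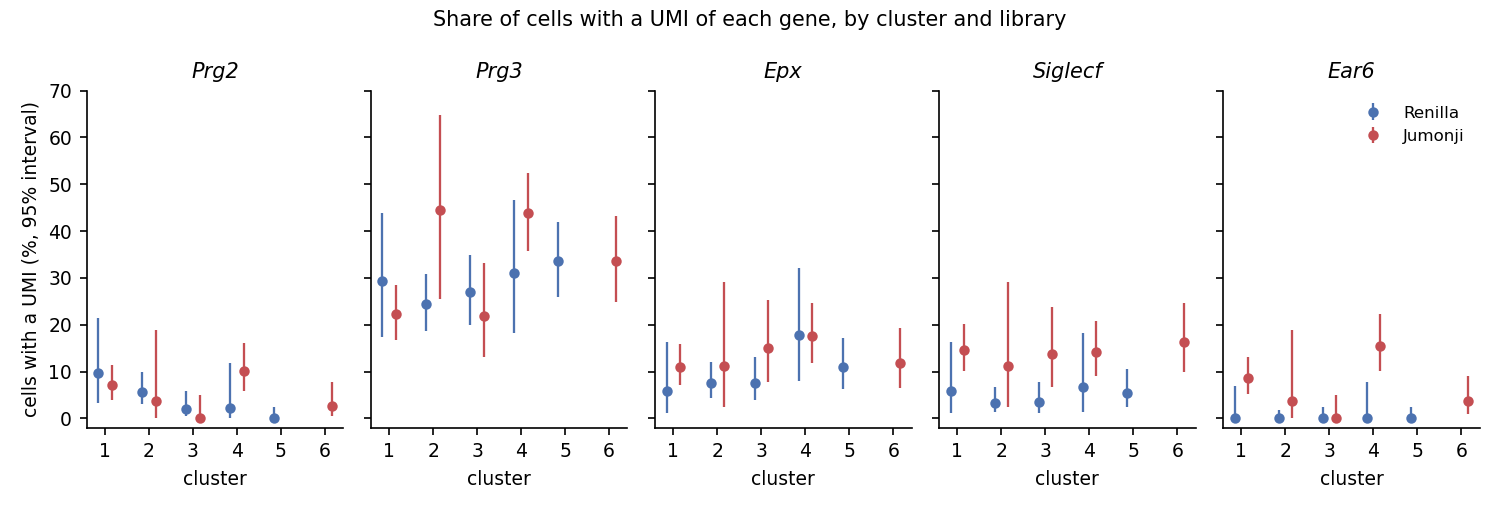
Share of cells with a UMI of each gene in clusters of at least 20 cells, by library, with exact 95% intervals and unthinned counts. By share of cells, Ear6 is highest in Jumonji cells of cluster 4 (15.5%), while its CPM there (7.76) was close to that of cluster 1 (7.59). Ear6 is at 0 in every Renilla cluster, and Siglecf lies between 11.1% and 16.4% in the Jumonji clusters shown.

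The genes most correlated with each of the 5 over the Jumonji cells were found among 10067 genes with a UMI in at least 20 cells. For Prg2 they were 0610038B21Rik (r = 0.45), Stx3 (0.44), Scd1 (0.29), Itgb3 (0.27) and Gcnt2 (0.27), but without the highest cell Scd1 was at -0.02, 0610038B21Rik at 0.25 and Itgb3 at 0.11. For Prg3 they were Stx3 (0.38), Ctsh (0.38), Cd63 (0.34), Cebpe (0.30) and Gm1604a (0.30), of which Stx3 encodes a membrane fusion protein and Cd63 a granule membrane tetraspanin. For Epx they were Stx3 (0.28), 0610038B21Rik (0.24), Itfg2 (0.24), 1700123O20Rik (0.24) and Cd63 (0.22). For Ear6 they were Ctsh (0.32), Tmsb4x (0.32), Gm5483 (0.31), Cybb (0.30) and Stfa2l1 (0.29), of which Cybb encodes the phagocyte oxidase subunit. For Siglecf no value exceeded 0.23 (Lilr4b, then Folr1, Ikbkg, Cdk18 and Lsp1 down to 0.20). Such weak values in sparse counts name the nearest genes and show no more.

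Other genes that define eosinophils were near or at 0. Of 16 eosinophil genes, 14 were in the table, and only the 5 described here reached 50 UMIs. Ccr3, the eotaxin receptor, and Ear1, Ear10 and Ear14 had no UMI in either library. Il5ra, the IL-5 receptor chain, had 1 Renilla and 2 Jumonji UMIs, Ear2 had 0 and 7, Adgre4 had 4 and 22, and Alox15 and Retnla had 0 and 1 each. The cells are therefore described by the genes counted in them and not called eosinophils.

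Of 12 regulators of the eosinophil lineage, 11 were measured. The Jumonji value was 2-fold higher or more for 2 of them and 2-fold lower for none. Id2, an inhibitor of DNA binding by helix-loop-helix factors, had 21 and 101 UMIs (log2 ratio 2.44), and Irf8, a regulator of monocyte and eosinophil development, had 580 and 1259 (1.29). Gata1, the factor needed for eosinophil formation, had 33 and 30 UMIs (1.02-fold, 0.603 to 1.73), and Gata2 had 314 and 330. Cebpa was lowest, at 0.527-fold (0.425 to 0.650), followed by Id1 at 0.751-fold. Gata1 was absent from the 8 Jumonji cells with 5 or more Prg2 UMIs, and so was Ctss. Among all 575 kept Jumonji cells, Gata1 was found in only 23 and Ctss in 214, so absence from 8 cells says little about Gata1. Of 7 receptor genes, 4 were measured and 2 were at least 2-fold higher: Csf2rb, the common signalling chain (3.32-fold, 3.0 to 3.68), and Csf2rb2, the IL-3-specific form (4.16-fold, 3.19 to 5.50). The partner chains were closer, with Il3ra at 1.31-fold and Csf2ra at 1.39-fold, and Il1rl1 had no UMI.

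Relatives and neighbours of the 5 genes did not all go the same way. Epx and Mpo are related peroxidases 59.6 kb apart on chromosome 11, and Mpo was at 0.113-fold (0.105 to 0.121), with 8756 Renilla and 876 Jumonji UMIs, while Epx was at 2.05-fold (1.52 to 2.77). Between and beside them, Mks1 was at 0.653-fold and Bzrap1 at 0.433-fold. Beside Prg2 and Prg3, P2rx3 was at 0.668-fold, Slc43a3 at 1.18-fold and Ssrp1 at 0.888-fold. Beside Siglecf, Zfp715 and Nkg7 were at 1.03-fold each and Etfb at 0.662-fold, and beside Ear6, Mettl17 was at 0.844-fold and Ndrg2 at 0.975-fold. Of the Siglec family, 4 genes were measured: Siglece was at 6.70-fold (4.25 to 11.1), Siglecf at 3.50-fold (2.26 to 5.56), Cd33 at 2.0-fold (1.89 to 2.12) just under the 2-fold line, and Mag at 1.42-fold. Of the ribonucleases, Rnase4 was at 1.53-fold and Ang at 1.22-fold. No measured gene within 100 kb of the 5, outside the 5 themselves, was at least 2-fold higher.

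Markers of other cell types moved between the libraries too. Of 7 measured monocyte and macrophage genes, 5 passed the 2-fold line upward, led by Ctss (14.3-fold) and Csf1r (7.10-fold), and 1 downward (Ccr2, 0.450-fold). The list summed to 578 CPM among Renilla cells and 986 among Jumonji cells. Of 3 measured basophil and mast cell genes, none was higher and Mcpt8 was lower (71 and 9 UMIs), with Prss34, Fcer1a, Tpsb2 and Cma1 at 0, and the list summed to 116 and 85.9 CPM. Of 3 measured megakaryocyte genes, Pf4 was higher (11 and 142 UMIs), and no erythroid gene reached 50 UMIs. The part of these shifts in the ratios of the 5 genes was not tested.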

How the data were processed

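Counts were deposited by the authors as gene-by-barcode matrices of raw UMI counts from 10x Genomics Chromium 3′ version 2 libraries, per the labels' protocols. Cell Ranger 1.3.1 and the mm10 build were used, per the submitters' processing notes. No source used here gives the annotation release or the rule for calling barcodes. The 5 genes and the marker lists were chosen with earlier results of these data known.

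UMIs were summed over kept cells and divided by the library total (CPM). Ratios carry exact conditional binomial intervals, sums exact Poisson intervals and shares Clopper-Pearson intervals, all at 95%. In ratios, 3 counts were used where a library had 0 UMIs. The ratio was tested on simulated counts for Jumonji against Renilla, drawn as Poisson counts, the model that the interval assumes. Of 9904 genes, 200 of 200 genes changed 3-fold passed the 2-fold line, as did 6 unchanged genes. The interval covered the simulated ratio for 95.7% of genes, which follows from that model. Changed genes were drawn from those with at least 200 UMIs over both libraries, more than Ear6 and Siglecf had. UMIs concentrated in single cells, as for Prg2, were not simulated.

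Depth was equalised by thinning each cell to 10000 UMIs (29 Renilla and 55 Jumonji cells were shallower) or 5000 (3 and 6). Each depth was drawn at random only 1 time, so small counts of cells can differ with the draw. Cells were clustered with scanpy 1.11.5 and leidenalg 0.10.2 (2000 variable genes, 30 components, 15 neighbours, resolution 0.6), leaving out 5493 genes: the eosinophil lists, genes at least 1.5-fold apart between libraries, and cell cycle, mitochondrial and ribosomal protein genes. Scrublet, run in scanpy, marked 9 Renilla (1.48%) and 5 Jumonji (0.870%) cells as doublets, which were kept. None of them was among the 10 cells of a library richest in the 5 genes. Alternatives covered scaling (edgeR 4.0.16 TMM, DESeq2 1.42.0 size factors), filters, thinning and single cells. Beyond the 5, named genes were drawn mainly from the 2 highest and 2 lowest measured genes of each list and those 2-fold apart. The 5 nearest correlates and measured neighbours within 100 kb were named too. Not all list genes that qualified were named, among them Lgals3 (7.10-fold), Adgre1 (2.66-fold) and Cd68 (2.58-fold) of the monocyte and macrophage list. Genes named at or near 0 were added after their values were seen. Correlations used log(1 + UMIs per 10000).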

Additional observations from a re-analysis of the deposited data

How the results depend on the processing

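All 60 log2 ratios of the 5 genes recomputed under 12 alternatives stayed above 0, and 98 of 120 recomputed values stayed within the counting interval, or within 1.5-fold for counts. Siglecf stayed within its interval throughout, and the other 4 genes left theirs at least once, Prg2 most often. The Prg2 log2 ratio was 0.89 with cells thinned to 10000 UMIs, 1.01 without the 10 highest cells of each library, 1.51 and 1.00 without the highest and the 2 highest Jumonji cells, 1.77 without cluster 1, and 3.16 with cells thinned to 5000 UMIs. At 5000 UMIs Prg3 was at 1.1 and Ear6 at 2.75, and at 10000 UMIs Epx was at 1.55. The count of genes at least 2-fold higher was 2 at 10000 UMIs, 2 with a minimum of 200 UMIs and 2 without cluster 1. The median of the 5 was 1.01 without the 10 highest cells of each library and 1.00 without the 2 highest Jumonji cells. The share of all genes at least 2-fold higher was 12.8% with a minimum of 1 UMI. Jumonji cells with 2 or more of the 5 genes made up 8.27% at 10000 UMIs, 4.04% at 5000 UMIs, 3.83% when 2 UMIs were required and 14.3% without cluster 4; Renilla cells made up 1.73%, 0.826% and 1.64% under the first 3 of these. Thinning removes molecules and shallow cells by construction, and a minimum of 200 UMIs leaves out Siglecf and Ear6. Leaving out the highest Jumonji cell or cluster 1, where it lay, removes that cell's 119 of 233 Prg2 UMIs. The cause of the remaining shifts was not tested. The alternatives that left out the highest Jumonji cells or a cluster, or thinned to 5000 UMIs, were added after seeing the data. No paired analysis was possible because each condition had 1 library.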
